A study of Homo sapiens with 6 samples.

Results

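Lactate dehydrogenases, monocarboxylate transporters (MCTs) and the membrane proteins that escort these carriers were followed in SH-SY5Y cells, a human neuroblastoma line, after adenoviral delivery of PGC-1a. The 9 members were LDHA, LDHB, LDHC, LDHD, SLC16A1, SLC16A3, SLC16A7, BSG and EMB. They were found by Ensembl gene ID among the 58096 gene rows of the deposited count table, and all 9 had a row. PGC-1a, the product of PPARGC1A, is a transcriptional coactivator known for raising mitochondrial gene expression. Cells were grown in DMEM with 10% serum and 1% antibiotic in 10 cm dishes, with confluence given as 80%. They received 2 ul of a PGC-1a adenovirus (group PGC1A, 3 libraries) or of a GFP adenovirus (group GFP, 3 libraries) for 48 h. Both groups are therefore virus-treated cells of the same line. The labels give no titre, no promoter and no species of the PGC-1a insert, and an uninfected library was not analysed here. Nothing in them says that the replicates were grown as independent cultures. The p-values thus rest on library-to-library spread that may be technical.

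Lactate dehydrogenase interconverts pyruvate and lactate and in doing so interconverts NADH and NAD. The working enzyme is a tetramer of LDHA (muscle type) and LDHB (heart type) chains. LDHA-rich forms are typical of glycolytic tissue and LDHB-rich forms of oxidative tissue that takes lactate up, as neurons do. Lactate crosses the plasma membrane with a proton through the MCTs. MCT1 (SLC16A1) is widespread, MCT2 (SLC16A7) is the high-affinity carrier of neurons, and MCT4 (SLC16A3) exports lactate from glycolytic cells. Basigin (BSG) and embigin (EMB) are the single-pass glycoproteins that bring MCTs to the cell surface.

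Gene counts per library were 28353957 to 30406182 in PGC1A and 24988743 to 31762496 in GFP. PPARGC1A itself had 4037 ± 61.8 CPM in PGC1A and 3.74 ± 0.233 CPM in GFP (SD, n = 3; CPM are TMM-scaled counts per 1e+06 gene counts). Of 7 noradrenergic neuroblastoma markers, summed levels were 439 to 450 CPM in PGC1A and 778 to 787 CPM in GFP, and the 6 tested were all lower. With the DESeq2 test 5 were lower, and against a change of 1.5-fold (glmTreat) 3 were. Over all genes tested, 40.9% were higher and 42.1% lower, which is the background for each marker count here. TH, which makes the catecholamine precursor, had 21 counts over the PGC1A libraries and 0 over the GFP libraries. For the labelled type, neuronal progenitor, 6 markers summed to 196 to 206 CPM in PGC1A and 764 to 772 CPM in GFP, most of it NES (5 tested, 1 higher and 2 lower, or 1 higher and 4 lower with total counts), and SOX1 was at 0 in every library. Schwann and glial markers stayed low, with 5 genes summing to 1.88 to 2.35 CPM in PGC1A and 7.57 to 8.37 CPM in GFP (3 tested, 1 higher and 2 lower), and SOX10 at 0 throughout. Mesenchymal neuroblastoma markers (6 genes) summed to 1297 to 1325 CPM in PGC1A and 2555 to 2596 CPM in GFP, with 5 lower. These shifts accompany every result below, and their part in it was not tested. In bulk RNA, fewer cells of a type and less RNA per cell cannot be told apart.

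Across the members, the transcripts of LDHB, MCT1, basigin and the D-lactate dehydrogenase LDHD rose, the second escort EMB fell, LDHA rose by little, and SLC16A3 did not pass the test. Of the 8 members that passed the low-count filter, 6 were higher and 1 was lower in PGC1A at an adjusted p under 0.05 (edgeR quasi-likelihood test, Benjamini-Hochberg over 19343 genes). LDHC did not pass the filter. The background is high: 83.0% of all genes tested were called, 40.9% higher and 42.1% lower, so 7 called of 8 is near what any gene showed. The same shares are the background for every list count below. The size of the change is given for each member below. The median log2 fold change over the 8 was 1.07, against −0.03 over all genes tested. LDHD and SLC16A7 entered the test through the PGC1A libraries alone, so neither this count nor this median says how the members compare with other genes. Against a change of 1.5-fold (glmTreat), which 47.8% of all genes passed in either direction, 5 members were called, all higher. LDHD and SLC16A7 are among these 5, so the same limit holds for this count.

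**Figure D1:**
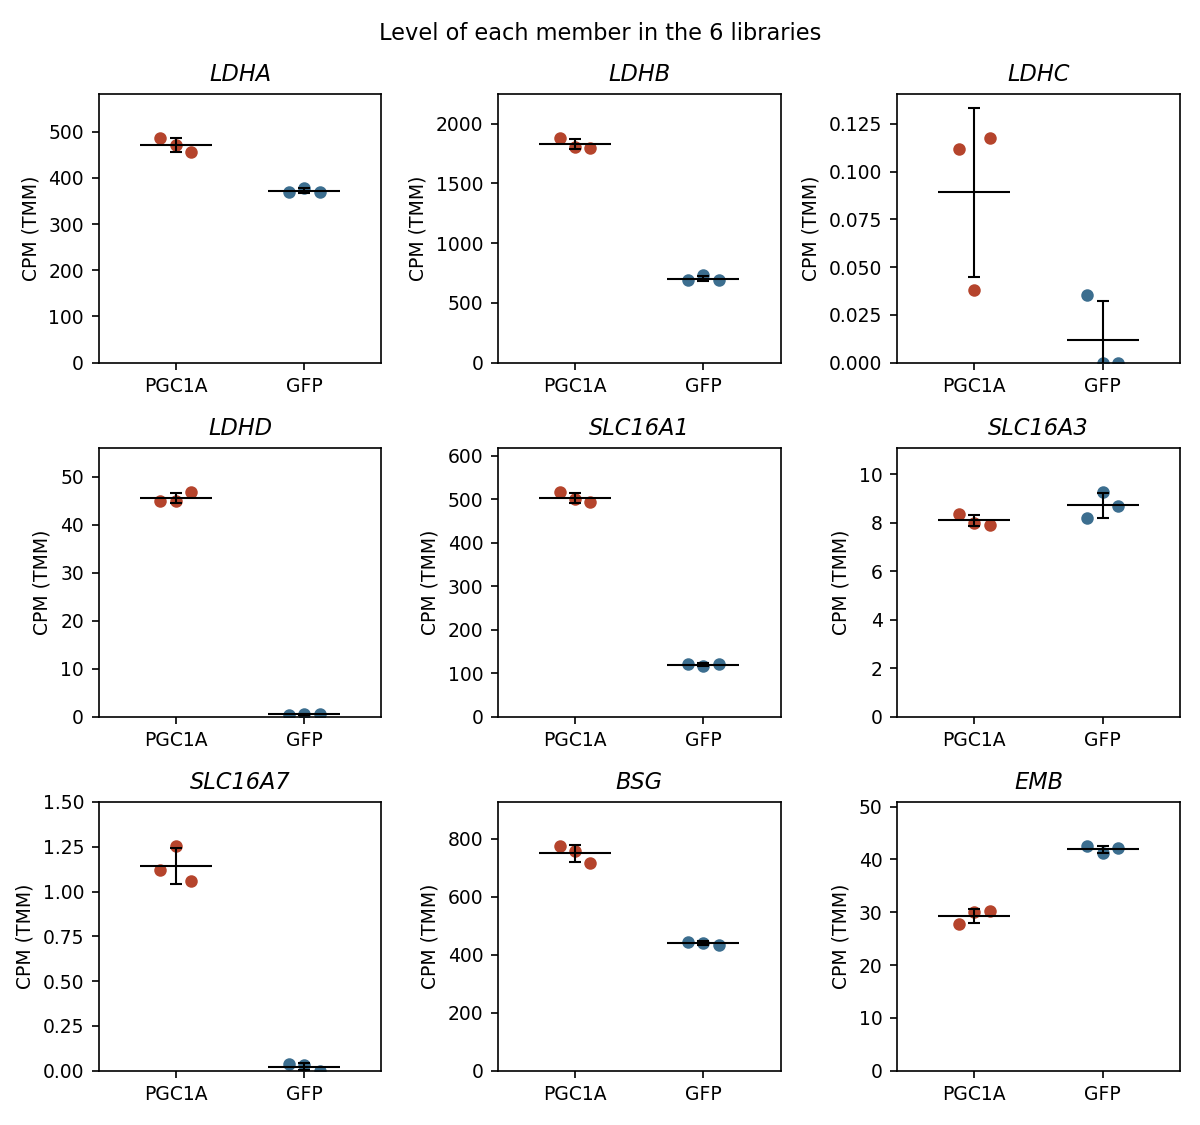
Level of each of the 9 members in CPM (TMM-scaled, linear axes from 0, a separate scale per gene), with PGC1A left of GFP. Points are libraries, and bars are the mean and SD of 3 libraries. LDHA, LDHB, LDHD, SLC16A1, SLC16A7 and BSG lie above GFP in every PGC1A library. EMB lies below, SLC16A3 overlaps, and LDHC has at most 3 counts in any library.

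LDHB (ENSG00000111716.12; chromosome 12, 21635342 to 21757857, minus strand, GRCh38) makes the heart-type chain. It had 1876, 1806 and 1797 CPM in the PGC1A libraries, against 687, 730 and 692 CPM in the GFP libraries. The lowest PGC1A library was above the highest GFP library. On the log2 scale LDHB rose by 1.38, with an SE of 0.02 (edgeR, adjusted p = 1.87e-42). In GENCODE 29, 33.4% of the LDHB exon bases also lie in AC010197.2, a gene on the same strand that had no row in the count table.

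LDHA (ENSG00000134333.13; chromosome 11, 18394388 to 18408425, plus strand) makes the muscle-type chain. It had 486, 471 and 455 CPM in PGC1A, against 369, 379 and 369 CPM in GFP. With TMM scaling these groups did not overlap either, but the distance was small. The log2 fold change was 0.34 (SE 0.02, adjusted p = 1.60e-17, edgeR), a 1.26-fold rise that did not pass against 1.5-fold (glmTreat adjusted p = 1). Its call rested on the scaling: with total counts in place of TMM the log2 fold change was 0.01 (adjusted p = 0.719). That scaling moved the median of all genes by −0.33 on the log2 scale, and upper-quartile scaling moved it by −0.13, with an LDHA log2 fold change of 0.21.

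The ratio of LDHB to LDHA within a library does not depend on scaling. Per kilobase of annotated exon, its log2 value was 3.01 ± 0.0211 in PGC1A and 1.97 ± 0.0270 in GFP (SD, n = 3), and the groups did not overlap. The ratio was therefore 2.06 times as high in PGC1A, with a log2 difference of 1.04. The exact permutation test gave p = 0.1, two-sided, which is the smallest value that 3 against 3 libraries allow. LDHA made up 11.0% ± 0.143 of the summed LDHA, LDHB and LDHC level in PGC1A and 20.3% ± 0.301 in GFP (SD, n = 3; CPM per exon kilobase). These shares depend on the length used: LDHA had 20.5% ± 0.238 in PGC1A and 34.6% ± 0.423 in GFP without length correction, and 14.1% ± 0.176 in PGC1A and 25.2% ± 0.352 in GFP with the longest principal transcripts. The summed level of these genes was 688 ± 16.7 CPM per kilobase in PGC1A and 296 ± 8.71 in GFP. The L-lactate dehydrogenase pool was thus larger and held a smaller share of LDHA. LDHB was the main subunit transcript in both groups.

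**Figure D2:**
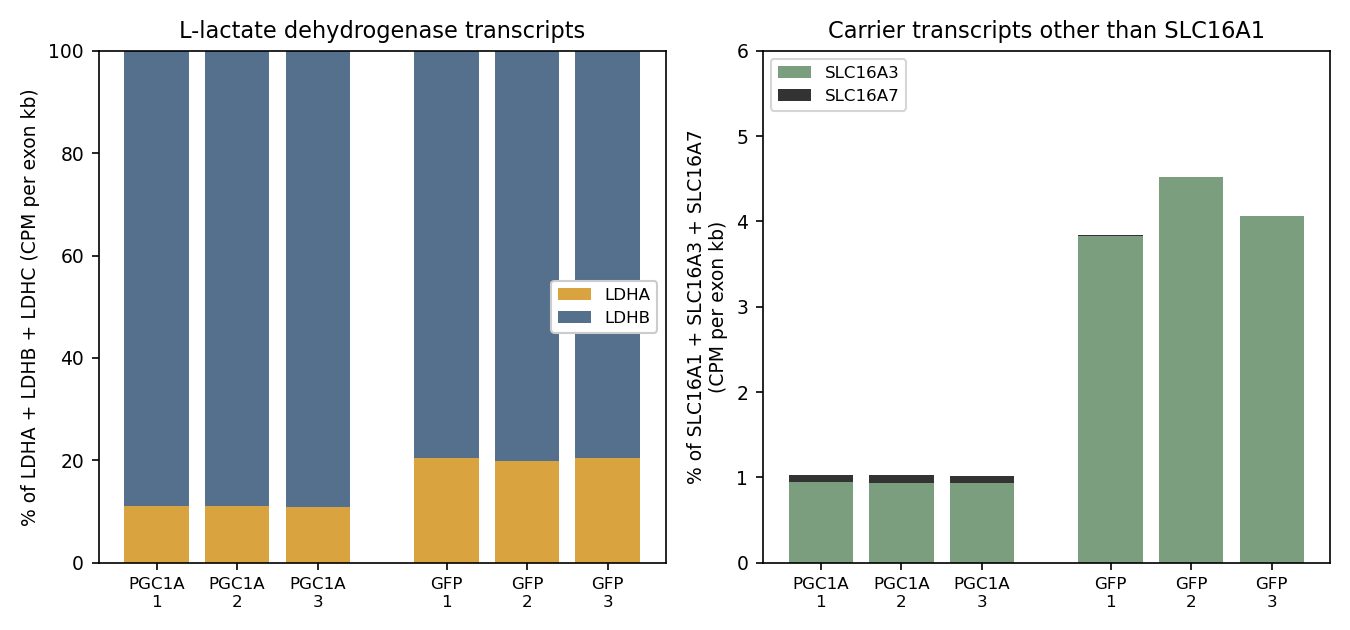
Left, share of LDHA and LDHB in the summed LDHA, LDHB and LDHC level per library (percent, from CPM per exon kilobase; LDHC is too small to see). Right, share of SLC16A3 and SLC16A7 in the summed SLC16A1, SLC16A3 and SLC16A7 level, on an axis that ends at 6%. PGC1A libraries are left of GFP libraries; LDHA takes 10.8% to 11.1% in PGC1A and 19.9% to 20.5% in GFP.

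Processed pseudogenes can catch reads of their parent gene. The LDHA pseudogene rows together came to 1.13% ± 0.0737 of the LDHA level in PGC1A, and to between 2.01% and 2.16% in GFP. Those of LDHB came to at most 0.0219% of the LDHB level in PGC1A and 0.0570% in GFP. Adding them to their parents gave a difference in LDHA share of −9.49 percentage points (PGC1A minus GFP), against −9.27 without them. These rows hold only reads counted to a pseudogene, so they cannot show whether reads matching both parent and pseudogene were left uncounted. The only pseudogene with enough reads to test, LDHAP4, went the other way from LDHA, with 4.89 ± 0.264 CPM in PGC1A and 7.27 ± 0.305 CPM in GFP (log2 fold change −0.57, SE 0.09, adjusted p = 2.33e-07, edgeR).

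RefSeq promoter windows (GRCh38.p14) were available for 6 of the 9 members, with 13 start sites. None was available for LDHD, SLC16A1 and EMB. Stretches before the starts of LDHA and LDHB are shown because these genes encode the chains of the same tetramer and moved by different amounts. The longer stretches hold only bases outside every GENCODE 29 exon and are printed 5′ to 3′ on the gene's strand. Capitals mark CACGTG, an E-box read by MYC and by hypoxia-inducible factors (HIFs), or overlapping copies of GCATGCGC, the core of the NRF1 element. The LDHB stretch holds none of the motifs searched.
LDHA, chr11:18394313-18394387, plus strand, before the start at 18394563: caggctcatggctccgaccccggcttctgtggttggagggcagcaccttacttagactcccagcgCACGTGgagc
LDHA, chr11:18396101-18396265, plus strand, before the start at 18396351: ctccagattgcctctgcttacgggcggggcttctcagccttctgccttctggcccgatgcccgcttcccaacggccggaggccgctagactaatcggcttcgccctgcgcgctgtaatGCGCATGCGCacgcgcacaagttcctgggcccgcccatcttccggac
LDHB, chr12:21657972-21658092, minus strand, before the start at 21657842: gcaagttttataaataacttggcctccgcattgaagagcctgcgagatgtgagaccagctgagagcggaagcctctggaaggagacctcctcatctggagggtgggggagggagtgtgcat

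Nearer the first LDHA start lie a second E-box and a cAMP response element, TGACGTCA. They begin 87 and 51 bases before it, lie after the first base of LDHA in GENCODE 29 (18394388), and are printed as 30-base sites with the motif in capitals.
LDHA E-box: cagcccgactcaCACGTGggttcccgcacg
LDHA cAMP response element: gccccccccgcTGACGTCAgcatagctgtt

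The search covered 250 bases before each start, on both strands. Of 35116 RefSeq windows of that length, 6.34% held CACGTG, 1.65% held TGACGTCA and 2.63% held GCATGCGC. The shorter HIF core ACGTG, which is contained in CACGTG, was in 18.5%. AAGGTCA is the core bound by estrogen-related receptors, the nuclear receptors through which PGC-1a is best known to act. It was in 3.44% of all windows and in 0 of the 13 windows of the members. LDHD, SLC16A1 and EMB had no window and were not searched. A match is a description of these letters, and a lack of one says only that they are not in these windows.

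LDHC (ENSG00000166796.11; chromosome 11, 18412307 to 18452058) is the testis form of the chain and lies 3881 bases downstream of LDHA. It had 3, 1 and 3 counts in PGC1A, against 1, 0 and 0 counts in GFP. Over the groups this was 7 counts against 1, a CPM ratio of 8.62 with a 95% counting interval of 1.11 to 389, and it was not tested. At this depth LDHC was at or near the limit of 3 counts. Of 10 other germ cell genes, 2 had enough reads to test. GAPDHS, the sperm form of glyceraldehyde-3-phosphate dehydrogenase, was higher (0.557 CPM in PGC1A, 0.0662 CPM in GFP), but 60.8% of its exon length is also covered by opposite-strand genes. AKAP4, an anchoring protein of the sperm tail, was lower (0.0257 CPM in PGC1A, 0.715 CPM in GFP). Each entered the test only through the group where it was higher. Both lie under the level the naming rule asks for and were named after their values were seen.

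LDHD (ENSG00000166816.13; chromosome 16, 75111860 to 75116771, minus strand) is unrelated to the L-lactate enzymes. It is a mitochondrial flavoprotein that oxidises D-lactate and passes electrons to the respiratory chain. It had 1204, 1183 and 1194 counts in PGC1A, against 8, 20 and 18 counts in GFP. In CPM this was 45.5 ± 1.05 in PGC1A and 0.464 ± 0.163 in GFP (SD, n = 3), a 95.1-fold rise (log2 fold change 6.57, SE 0.10, adjusted p = 8.25e-46, edgeR).

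The genes that supply D-lactate did not move on that scale. D-lactate arises from methylglyoxal, a by-product of glycolysis, through the glyoxalases GLO1 and HAGH. Of 5 genes of this list 4 were higher and 1 lower (median 0.11 on the log2 scale), against 1 higher and 3 lower with total counts. GLO1, the first enzyme, had 103 ± 1.96 CPM in PGC1A and 132 ± 1.01 CPM in GFP (log2 fold change −0.36). HAGH, the second, had 36.9 ± 1.10 CPM in PGC1A and 28.8 ± 1.41 CPM in GFP (0.36, adjusted p = 0.526 with total counts). PNKD, a relative of HAGH, was higher by 2.30. Among oxidases of other 2-hydroxyacids, D2HGDH, a mitochondrial flavoprotein like LDHD, had 17.4 ± 0.869 CPM in PGC1A and 19.1 ± 0.910 CPM in GFP. Its log2 fold change of −0.13 (adjusted p = 0.0336, edgeR) did not pass with DESeq2-type size factors (adjusted p = 0.122), with the DESeq2 test (0.254) or without GFP replicate 2 (0.146), PGC1A replicate 1 (0.169) or PGC1A replicate 2 (0.124). HAO1 and HAO2, the peroxisomal oxidases, had 0 counts in all libraries.

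SLC16A1 (ENSG00000155380.11; chromosome 1, 112911847 to 112957013, minus strand) encodes MCT1. It had 516, 501 and 494 CPM in PGC1A, against 121, 116 and 121 CPM in GFP. The groups were far apart and each was tight. The rise was 4.22-fold (log2 fold change 2.08, SE 0.03, adjusted p = 4.79e-49, edgeR). The antisense gene SLC16A1-AS1 covers 3.29% of its exon bases and had 16.2 CPM in PGC1A and 9.84 CPM in GFP, far below SLC16A1 in both.

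SLC16A3 (ENSG00000141526.15; chromosome 17, 82228397 to 82261129, plus strand) encodes MCT4. It had 8.36, 8.01 and 7.91 CPM in PGC1A, against 8.19, 9.25 and 8.69 CPM in GFP. The groups overlapped. The log2 fold change was −0.11 with a 95% interval of −0.27 to 0.05 (adjusted p = 0.199, edgeR). This gene also turned on the scaling: it was called lower with upper-quartile factors (−0.24, adjusted p = 0.00598) and with total counts (−0.44, adjusted p = 2.40e-06).

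SLC16A7 (ENSG00000118596.11; chromosome 12, 59596067 to 59789855, plus strand) encodes MCT2. It had 30, 33 and 27 counts in PGC1A, against 1, 1 and 0 counts in GFP. The CPM ratio of the group sums was 55.4, with a 95% counting interval of 14.9 to 465. It passed the test (adjusted p = 2.13e-14, edgeR), though its fitted fold change depends on how 2 GFP counts are smoothed. At 1.14 ± 0.0996 CPM in PGC1A it remained a low transcript.

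Set against each other per exon kilobase, SLC16A1 held most of the MCT level in both groups. Its share was 99.0% ± 0.00664 in PGC1A and 95.9% ± 0.347 in GFP (SD, n = 3), while SLC16A3 had 0.939% ± 0.00682 in PGC1A and 4.14% ± 0.346 in GFP. SLC16A7 had 0.0873% ± 0.00766 in PGC1A and 0.00688% ± 0.00600 in GFP. The SLC16A1 to SLC16A3 ratio was 4.54 times as high in PGC1A (log2 difference 2.18, exact permutation p = 0.1, the smallest possible).

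**Figure D3:**
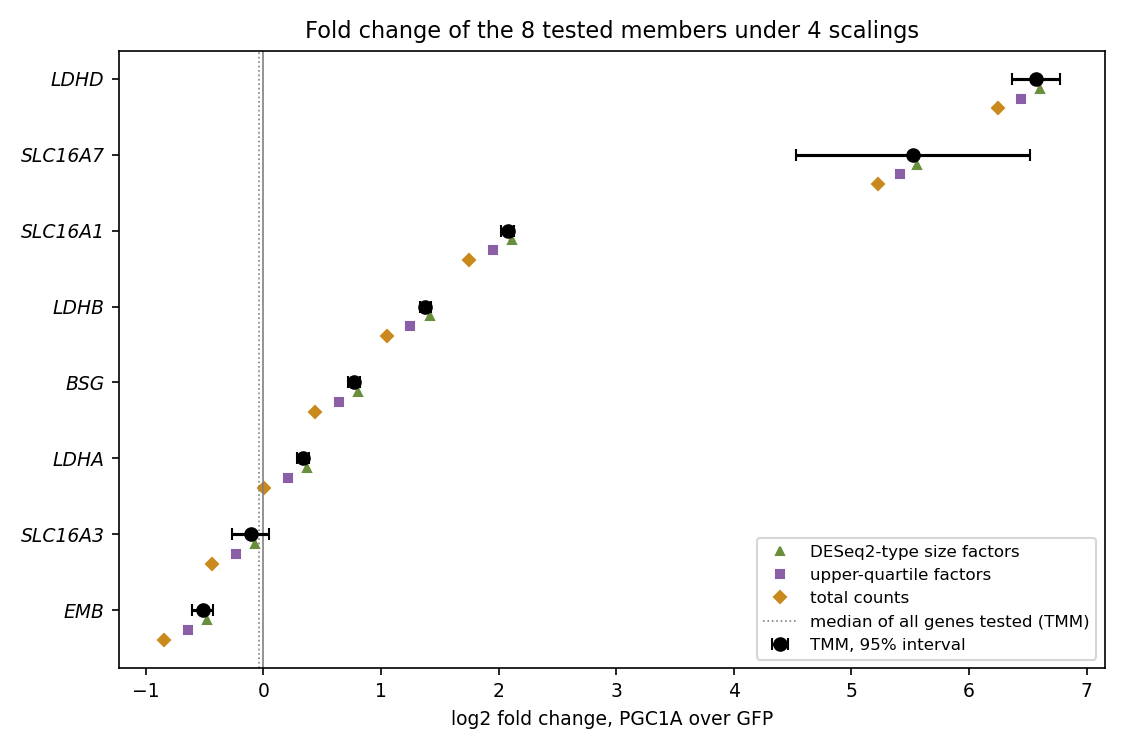
Log2 fold change, PGC1A over GFP, of the 8 tested members from edgeR with TMM scaling (black, with 95% intervals), beside the values with DESeq2-type size factors, upper-quartile factors and total counts. The grey lines mark 0 and the median of all genes tested. Total counts bring LDHA to 0.01 and SLC16A3 to −0.44. All 8 members keep their direction under every scaling shown, while the calls of LDHA and SLC16A3 depend on the scaling.

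BSG (ENSG00000172270.18; chromosome 19, 571277 to 583493, plus strand) encodes basigin, the usual partner of MCT1 and MCT4. It had 774, 758 and 716 CPM in PGC1A, against 445, 441 and 432 CPM in GFP. It was higher in every PGC1A library, by 1.70-fold (log2 fold change 0.77, SE 0.02, adjusted p = 2.73e-31, edgeR). Since SLC16A1 rose more, there was less basigin transcript for each carrier transcript. Per kilobase, BSG stood at 2.06 ± 0.0449 times the summed SLC16A1, SLC16A3 and SLC16A7 level in PGC1A and 4.94 ± 0.158 times in GFP (SD, n = 3).

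EMB (ENSG00000170571.11; chromosome 5, 50396192 to 50443248, minus strand) encodes embigin, the preferred partner of MCT2. It had 27.7, 30.0 and 30.2 CPM in PGC1A, against 42.5, 41.2 and 42.2 CPM in GFP. All PGC1A libraries were below all GFP libraries. The log2 fold change was −0.52 (SE 0.04, adjusted p = 2.11e-15, edgeR), a change that did not pass against 1.5-fold (glmTreat adjusted p = 1). The BSG to EMB ratio was 2.44 times as high in PGC1A (log2 difference 1.29, exact permutation p = 0.1, the smallest possible). Over the 3 ratios tested (LDHB to LDHA, SLC16A1 to SLC16A3, BSG to EMB) the adjusted p was also 0.1. Neuroplastin (NPTN), the third protein of the basigin family, rose by 0.50 on the log2 scale (53.5 ± 1.78 CPM in PGC1A, 37.7 ± 0.512 CPM in GFP), and did not pass against 1.5-fold.

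Before a BSG start (572596) lies an E-box, 193 bases upstream, and before one SLC16A3 start (82229042) lie copies of ACGTG 68 and 55 bases upstream. A 30-base site is shown for each gene, since each has a HIF-type core near a start. ACGTG was also in a window of LDHA and in one of LDHC. Any link between these sites and the values of BSG or SLC16A3 was not tested. The AAGGTCA core was in no window of either gene.
BSG, chr19, E-box in capitals: gcaacgccgggtCACGTGcgccgccgcccg
SLC16A3, chr17, HIF core 68 bases upstream in capitals (the copy 55 bases upstream ends the line in lower case): cgccaggcggtgACGTGcgcgggggacgtg

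Levels per exon kilobase placed the members in different orders in the groups. In PGC1A the order was LDHB (612 CPM per kilobase), BSG (197), SLC16A1 (94.8), LDHA (75.8), LDHD (19.3), EMB (5.57), SLC16A3 (0.900), SLC16A7 (0.0836) and LDHC (0.0425). In GFP it was LDHB (236), BSG (116), LDHA (59.9), SLC16A1 (22.5), EMB (7.98), SLC16A3 (0.968), LDHD (0.197), LDHC (0.00566) and SLC16A7 (0.00160). LDHD thus went above EMB and SLC16A3. The libraries of neighbours in each order did not overlap, except for LDHC and SLC16A7 in GFP, where both were at 2 counts or fewer over the group. The place of SLC16A1 above LDHA depends on length: with the longest principal transcript of each gene, LDHA had 195 CPM per kilobase and SLC16A1 115 in PGC1A.

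The other carriers of the SLC16 family split. Of 11 genes 10 were tested, 4 were higher, 5 lower and 1 did not pass (median −0.10 on the log2 scale). Over all genes tested, 40.9% were higher and 42.1% lower. SLC16A5 entered the test through the PGC1A libraries alone, so neither this count nor this median says how the family compares with other genes. SLC16A14, an orphan member, fell by 1.06 on the log2 scale (2.38 ± 0.207 CPM in PGC1A, 4.95 ± 0.313 CPM in GFP). SLC16A5, also called MCT6, had 255 counts over the PGC1A libraries and 1 over the GFP libraries, a CPM ratio of 314 with a 95% counting interval of 55.9 to 12455. SLC16A8, the MCT3 lactate carrier of retinal pigment epithelium, was named after its value was seen. It had 5.54 ± 0.221 CPM in PGC1A and 0.948 ± 0.166 CPM in GFP (log2 fold change 2.56, adjusted p = 1.35e-21, edgeR).

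Sodium-coupled uptake of lactate showed a gene that was silent in GFP. SLC5A8, a sodium-coupled monocarboxylate transporter, had 316 counts over the PGC1A libraries and 0 over the GFP libraries, at least 130-fold higher (floor of 3 counts over the group). Its relative SLC5A12 had 0 counts in PGC1A and 4 in GFP. The lactate receptor gene HCAR1 had 0 counts in every library. Of the LDH-like genes, UEVLD, which carries a lactate dehydrogenase-type domain, rose by 0.45 on the log2 scale (49.6 ± 0.408 CPM in PGC1A, 36.3 ± 0.614 CPM in GFP), without passing against 1.5-fold. LDHAL6A (0.598 CPM in PGC1A, 0.553 CPM in GFP) did not pass the test, and LDHAL6B had too few counts to test.

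The steps on either side of lactate were mostly higher. Of 15 glycolytic enzymes 12 were higher and 3 lower (median log2 fold change 1.36), and the counts were the same with total counts. Over all genes tested, 40.9% were higher and 42.1% lower, which is the background for each count in this paragraph. GPI, the isomerase, was higher by 2.25 and PFKM, the muscle phosphofructokinase, by 2.06, while HK2, the inducible hexokinase, fell by 1.28. LDHA at 0.34 was below each of the 12 higher enzymes, of which ENO1 at 0.83 was the lowest. LDHB at 1.38 was next to PKM at 1.36, the pyruvate kinase that acts just before the dehydrogenases. ENO1 and PKM were named after their values were seen. Of 10 genes of pyruvate entry and use 9 were higher and 1 lower (median 2.43). The mitochondrial pyruvate carrier subunits MPC1 and MPC2 rose by 5.39 and 3.79 (log2), and GPT2, the mitochondrial alanine transaminase, fell by 0.68. All 4 pyruvate dehydrogenase kinases, which switch that complex off, were higher (median 0.89; 3 of 4 with total counts), with PDK4 up by 2.99 and PDK1 by 0.92.

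Cytosolic NADH can be reoxidised by LDH or handed to mitochondria by shuttles. All 9 shuttle genes were higher (median log2 fold change 2.42), or 8 higher and 1 lower with total counts. Over all genes tested, 40.9% were higher. Against 1.5-fold (glmTreat) 7 of the 9 were called, all higher. The aspartate aminotransferases GOT1 (681 ± 14.4 CPM in PGC1A, 34.4 ± 0.576 CPM in GFP) and GOT2 rose by 4.31 and 3.31 on the log2 scale. GPD2, of the glycerol phosphate shuttle, was at 0.14, the smallest value of the list.

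**Figure D4:**
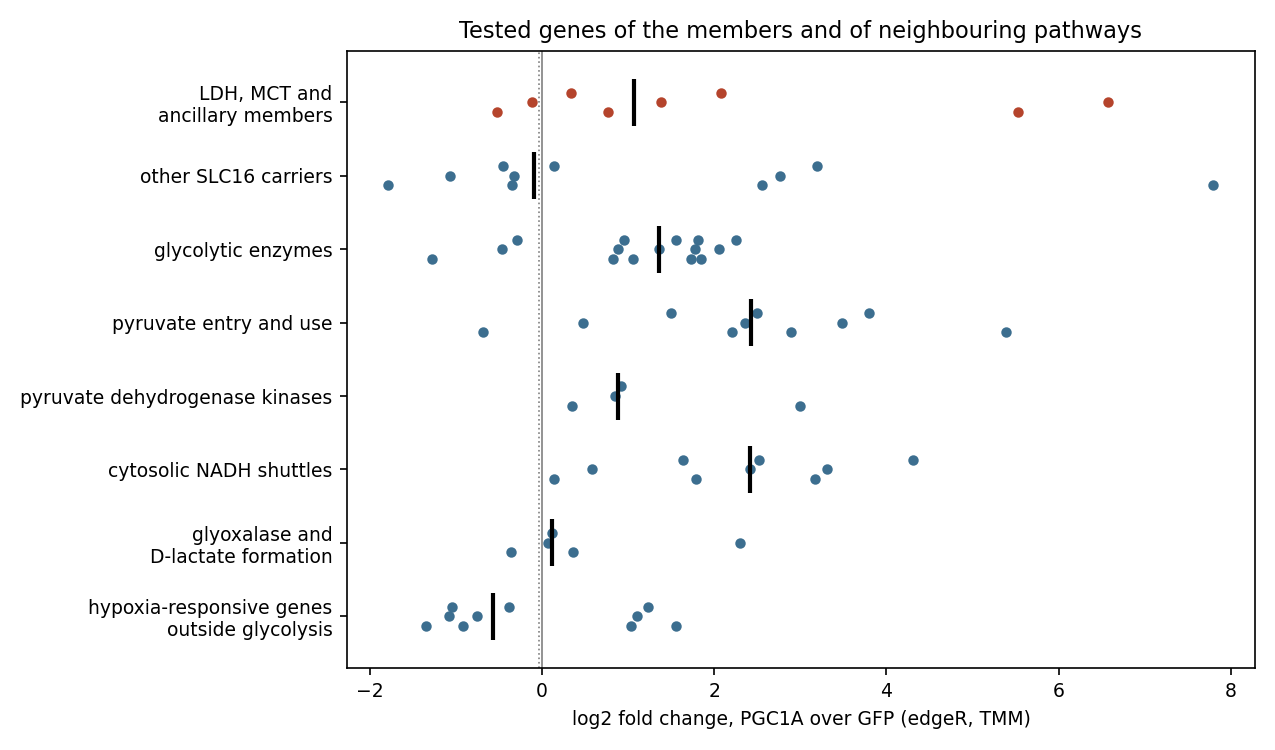
Log2 fold change, PGC1A over GFP, of each tested gene (points) in the LDH, MCT and ancillary group and in 7 neighbouring lists, with the median as a black bar; grey lines mark 0 and the median of all genes tested. Medians run from 2.43 for pyruvate entry and use to −0.56 for the hypoxia-responsive genes; the rightmost point, SLC16A5, rests on 1 GFP count.

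Factors known to act on LDHA and the MCTs moved in both directions: of 8 listed, the delivered PPARGC1A included, 4 were higher and 4 lower. ESRRB entered the test through the PGC1A libraries alone and MYCN, which was lower, through the GFP libraries alone. This count therefore does not say how these factors compare with other genes. LDHA is a textbook target of HIF and MYC. HIF1A was lower (187 ± 2.33 CPM in PGC1A, 235 ± 4.94 CPM in GFP; log2 fold change −0.32) and its relative EPAS1 was higher (238 ± 5.10 CPM in PGC1A, 60.3 ± 1.64 CPM in GFP; 1.98). MYC fell by 1.06 on the log2 scale (6.89 ± 0.302 CPM in PGC1A, 14.3 ± 0.305 CPM in GFP). Of 11 hypoxia-responsive genes outside glycolysis 10 were tested, 4 higher and 6 lower (median −0.56). VEGFA, the angiogenic ligand, rose by 1.55, while PFKFB3, a regulator of phosphofructokinase, fell by 1.08 and ANKRD37, 35.2% of whose exon bases overlap other genes, fell by 1.35. Of the estrogen-related receptors, ESRRA rose by 2.10 on the log2 scale (208 ± 4.35 CPM in PGC1A, 48.5 ± 1.27 CPM in GFP), ESRRB rose by 5.98 (11.4 ± 0.698 CPM in PGC1A, 0.173 ± 0.0869 CPM in GFP) and ESRRG fell by 0.97. HIF1A, EPAS1, MYCN, ESRRA, ESRRG and GPD2 were named after their values were seen.

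The genes whose pattern over the 6 libraries came nearest to that of each main member were sought among 11176 protein-coding genes at a mean of 5 CPM or more, as the root mean square difference of centred log2 CPM. Nearest to LDHA were AES (0.0106), EXOSC7 (0.0124) and TM9SF4 (0.0135). Nearest to LDHB were WDR37 (0.0182), TBRG4 (0.0185) and PCYT1A (0.0206). Nearest to SLC16A1 were AFF1 (0.0145), TEX264 (0.0231) and TIMM50 (0.0239). Since 2 groups make up the 6 libraries, these distances mainly compare the size of the fold change.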

How the data were processed

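The authors deposited raw read counts per gene for 6 libraries in a single table. Build GRCh38 and the tools HTSeq 0.10.0, STAR 2.6.0c, DRAGEN and DESeq2 1.20.0 come from the submitters' processing notes. Annotation release and strand handling were not given in the sources used here, so reads of overlapping genes may be lost or shared. The 5 HTSeq summary lines (28.8% to 31.0% of each library's total) were left out of library sizes and tests. IDs without version were matched to GENCODE 29 (57492 of 58096 rows).

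All genes were fitted together with edgeR 4.0.16 (R 4.3.3): TMM factors, filterByExpr (minimum count 10, total 15), robust glmQLFit, glmQLFTest, a single group term, two-sided, Benjamini-Hochberg adjusted over 19343 genes, threshold 0.05. Intervals are 95%. Counting intervals and the floor of 3 counts cover counting error only, as no molecular identifiers were used. Within-library ratios were compared by exact permutation. The procedure was tested on simulated data in which few genes changed. Since 83.0% of genes were called here, that test does not cover the choice of scaling. Per kilobase refers to the union of annotated exons, which includes rarely used exons.

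The members, lists and tests were chosen with earlier results of these data known. Named genes were the members, PPARGC1A, from each list the called genes that changed most (up to 2 in its commoner direction, 1 in the opposite one, mean at least 1 CPM), and the 3 nearest in pattern to LDHA, LDHB and SLC16A1; exceptions are stated, and some genes the rule takes are not reported here. Same-numbered libraries did not deviate together (correlations −0.01 to 0.01), so replicate numbers were not used as pairs. Replicates differed by more than counting noise (chi-square per degree of freedom 1.23 to 2.60). Alternatives were other scalings (DESeq2-type, upper-quartile, total counts, PPARGC1A and mitochondrial genes left out), other filters, DESeq2 1.42.0, limma-voom 3.58.1, non-robust edgeR, glmTreat, a replicate block, each library left out, pseudogene counts added, and other lengths.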

Additional observations from a re-analysis of the deposited data

How the results depend on the processing

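LDHB, LDHD, SLC16A1, SLC16A7 and BSG kept their direction and call under every alternative that gave them a value; SLC16A7 was not tested with a filter of 1 CPM. LDHA lost its call with total counts (0.0087) and against 1.5-fold (0.34), and EMB lost its call against 1.5-fold (−0.52). SLC16A3 was called lower with upper-quartile factors (−0.24) and total counts (−0.44). Members called lower numbered 2 with upper-quartile factors, 2 with total counts and 0 with glmTreat, against 1; members called higher numbered 5 with total counts, glmTreat or a filter of 1 CPM, and 6 otherwise. Over all genes, glmTreat gave 4766 higher and 4475 lower, against 7909 and 8148; total counts gave 10742 lower. The LDHA share of the pool differed by −9.27 percentage points, PGC1A minus GFP (−9.44 to −9.15 with 1 library left out). The difference was −14.1 without length correction and −11.1 with principal transcript lengths, a setting chosen after seeing the data; the cause is the length used. Leaving out each library gave log2 fold changes of 0.32 to 0.37 for LDHA, 1.35 to 1.40 for LDHB, 2.05 to 2.10 for SLC16A1, −0.16 to −0.07 for SLC16A3 and −0.53 to −0.47 for EMB. With the replicate block no member's call changed (LDHA 0.34, SLC16A3 −0.11), and 7914 genes were higher and 8157 lower. The ratios were the same in size with the block, where the exact sign-flip p of 0.25 is the smallest possible. The cause of the dependence on scaling was not tested. Depth limits LDHC and SLC16A7, which had 1 and 2 counts over the GFP libraries.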
